A study of Yarrowia lipolytica with 6 samples.

Results

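POX2, POX3, POX4 and POX5 are 4 of the 6 acyl-CoA oxidase genes of Yarrowia lipolytica, an oil-accumulating yeast that can live on alkanes. They were taken by the names that the authors' deposited table gives them (locus tags YALI0_F10857g, YALI0_D24750g, YALI0_E27654g and YALI0_C23859g, on chromosomes F, D, E and C by the letters of the tags). All 4 were found among the 9235 features of each count file. Transcripts were measured by RNA sequencing in 3 cultures of a Snf1 deletion strain (∆Snf1, made by homologous recombination per the labels) and 3 cultures of the wild type strain it is set against (CXAU/AI), labelled as biological replicates. After a preculture of 48 h, cultures of both strains ran for 24 h at 30 °C before 1 h with 2% n-decane and 1% uracil, and 0.1% Triton-X was then added to free the cells from decane droplets. All 6 libraries therefore come from decane-treated cells and none shows the level before decane. Whether the deletion strain is 1 clone or several is not given in the sources used here.

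An acyl-CoA oxidase opens each round of peroxisomal beta-oxidation by putting a double bond into an acyl-CoA and passing the electrons to oxygen, which yields hydrogen peroxide. In this yeast the reaction is shared by a family of isozymes: the POX2 product is known for a preference for long chains and the POX3 product for short chains, while the POX4 and POX5 products are known as isozymes with no marked chain-length preference. Alkanes such as decane enter this pathway after oxidation to a fatty acid. Snf1 is the yeast AMP-activated protein kinase, known from Saccharomyces cerevisiae to be needed for growth when glucose runs out.

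Libraries held 32315239 to 37094343 counts in the deletion and 33835106 to 38054417 in wild type. Snf1 itself had 0 counts in all 3 deletion libraries, against 2546 to 3644 counts in wild type. Its row was found partly by its fold change in the authors' deposited table, which compares these same libraries. The counts are therefore no separate check of the labels. Levels are given as CPM, which are counts scaled to library size and corrected for library make-up by TMM, and, between genes, as CPM per kb of coding length. Lengths were 2103 bases for POX2, 2106 for POX4 and 2100 for POX5. The table used had no length for POX3, and the mean of the other members was put in its place. Fold changes are from edgeR's quasi-likelihood test, fitted to all tested features, with Benjamini-Hochberg adjusted p-values over all of them. The biological spread over cultures was wide, with a coefficient of variation of 0.363 over features.

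All 4 oxidase transcripts fell in the deletion, and they fell by very unequal amounts. The deletion kept 3.29% of the wild type mean level of POX2, 2.65% of POX3, 0.945% of POX5 and 0.142% of POX4. All 4 passed the threshold as lower, where 18.7% of all tested features did. They were taken from the authors' deposited table, whose units all have an adjusted p under 0.05 in these same libraries. That they passed was thus largely settled beforehand, and 51.4% of the units of that table are lower. In all 4 the deletion libraries lay wholly below the wild type libraries, as they did for 24.5% of tested features. The median log2 fold change was -5.98 over the members and 0.04 over all 7244 tested features.

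POX2, the long-chain isozyme gene, stood at 308, 511 and 507 CPM in deletion replicates 1, 2 and 3, against 16186, 13452 and 10709 CPM in wild type replicates 1, 2 and 3. Even the lowest wild type library was 20.9-fold above the highest deletion library. The means were 442 ± 116 CPM in the deletion and 13449 ± 2739 CPM in wild type (SD, n = 3 each). The log2 fold change in edgeR was -4.93 (SE 0.53, adjusted p = 1.56e-05). POX2 was thus the member with the smallest fall, yet only 74 of the tested features had a larger one.

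POX3, the short-chain isozyme gene, had 121, 172 and 160 CPM in deletion replicates 1 to 3, against 6836, 5678 and 4593 CPM in the wild type replicates. Its replicates followed those of POX2 in both groups: the lowest deletion library was replicate 1 and the highest wild type library was replicate 1 for both genes. Means were 151 ± 26.6 CPM in the deletion and 5702 ± 1122 CPM in wild type (SD, n = 3 each). The log2 fold change was -5.24 (SE 0.49, adjusted p = 4.80e-06).

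POX4 fell the most. Its deletion libraries held 12.0, 8.87 and 18.0 CPM, against 7247, 11475 and 8715 CPM in wild type replicates 1, 2 and 3. The gap between the groups was 402-fold at its narrowest, and wild type replicate 1, the highest library for POX2 and POX3, was the lowest for POX4. Means were 12.9 ± 4.65 CPM in the deletion and 9146 ± 2147 CPM in wild type (SD, n = 3 each), which edgeR fitted as -9.46 on the log2 scale (SE 0.65, adjusted p = 9.29e-07). Only 3 of the tested features fell further, Snf1 included. The residue was still counted well: replicates 1, 2 and 3 of the deletion had 471, 370 and 665 reads on POX4, with an exact Poisson interval of 333 to 410 for the lowest, which covers counting error only.

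POX5, the other gene of an isozyme with no marked chain-length preference, lay between. It had 42.4, 37.0 and 23.4 CPM in deletion replicates 1 to 3, against 4394, 3876 and 2613 CPM in the wild type replicates. In the deletion its lowest library was replicate 3, the library in which POX4 was highest. Means were 34.3 ± 9.78 CPM in the deletion and 3628 ± 916 CPM in wild type (SD, n = 3 each), or -6.73 on the log2 scale in edgeR (SE 0.54, adjusted p = 1.59e-06). The narrowest gap between the groups was 61.6-fold.

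**Figure D1:**
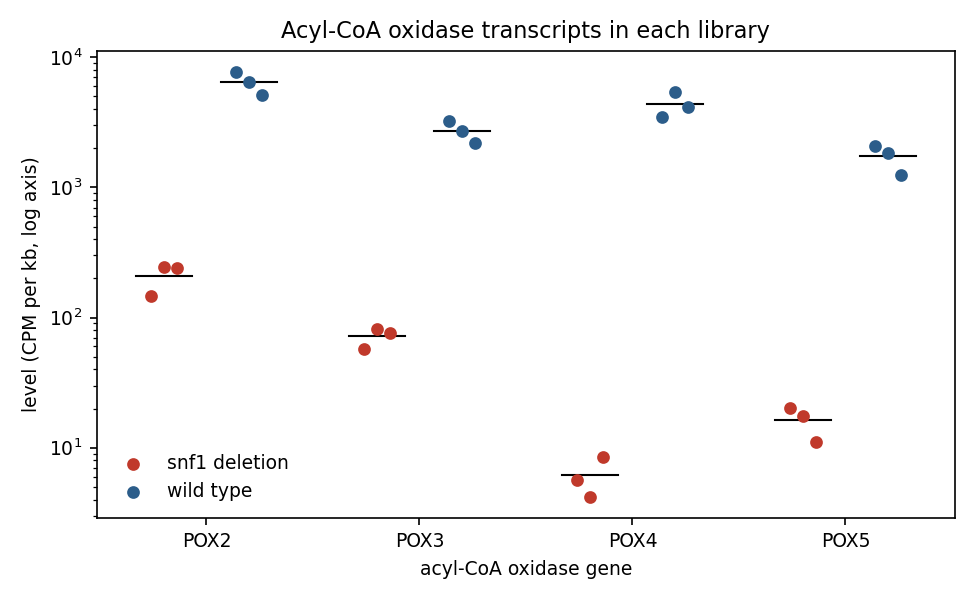
Level of each transcript in CPM per kb of coding length (log axis) in the 3 snf1 deletion libraries (red, left) and the 3 wild type libraries (blue, right) of each gene, with group means as lines. The groups do not overlap for any of the 4 genes, and POX4, at 4.21 to 8.55 CPM per kb in the deletion, shows the widest gap.

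The order of the falls is the same in the authors' deposited table, in which all 4 members are lower, as are 51.4% of its own units. The authors' deposited table gives log2 fold changes, deletion over wild type, of -4.76 for POX2, -5.08 for POX3, -6.51 for POX5 and -9.17 for POX4, with standard errors of 0.33, 0.32, 0.35 and 0.36. In the same genes' order, the adjusted p-values of the authors' deposited table are 1.15e-44, 4.59e-56, 2.32e-76 and 3.90e-138. These values are no second measurement, since they come from the same libraries, and the count row of POX2 was identified through them.

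**Figure D2:**
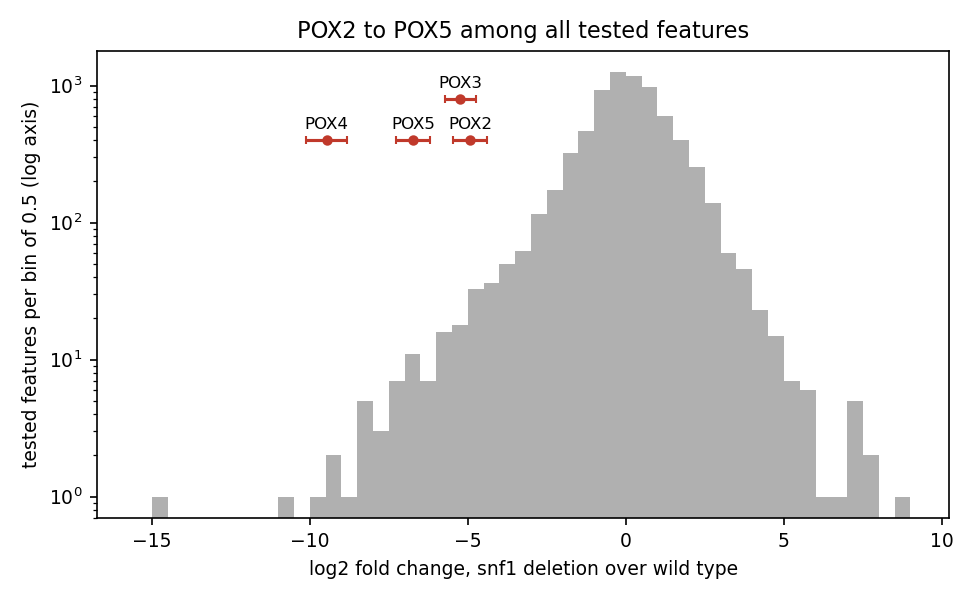
Distribution of the log2 fold changes, snf1 deletion over wild type, of all 7244 tested features (grey bars, log axis), with the 4 oxidase genes as red points and their SE as bars; the height of the points has no meaning. The oxidase genes lie in the far lower tail, with POX2 at -4.93 and POX4 at -9.46.

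The order of the isozymes was not the same in the groups. In the deletion, POX2 led with 210 ± 55.2 CPM per kb, followed by POX3 with 71.7 ± 12.7, POX5 with 16.3 ± 4.66 and POX4 with 6.15 ± 2.21 CPM per kb (SD, n = 3). No neighbours in that order overlapped. In wild type, POX2 led with 6395 ± 1302 CPM per kb, followed by POX4 with 4343 ± 1019, POX3 with 2711 ± 533 and POX5 with 1727 ± 436 CPM per kb (SD, n = 3). The ranges of POX2 and POX4 overlapped there (5092 to 7697 and 3441 to 5449 CPM per kb), although POX2 was above POX4 within each wild type library. The ranges of POX4 and POX3 (2184 to 3250 CPM per kb), and those of POX3 and POX5 (1244 to 2092), did not overlap but came close, and the place of POX3 rests on its assumed length. POX4 was thus last in the deletion and in second place in wild type. From highest to lowest mean, the isozymes spanned 34.2-fold in the deletion and 3.70-fold in wild type.

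Among the 5212 tested coding features with a length, POX2 ranked 541 in the deletion and 17 in wild type by mean CPM per kb. POX3 ranked 1363 in the deletion and 58 in wild type, with the assumed length. POX5 ranked 3182 in the deletion and 97 in wild type. POX4 ranked 4239 in the deletion and 31 in wild type. The median feature of that set stood at 25.6 CPM per kb in the deletion and 30.8 CPM per kb in wild type. Without Snf1, POX2 and POX3 therefore still lay above the median feature, and POX5 and POX4 lay below it.

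The 4 transcripts together took 0.0734%, 0.0513% to 0.0879% over libraries, of all counts in the deletion and 2.81%, 2.48% to 3.26%, in wild type. POX2 alone held 0.0327% to 0.0616% in the deletion and 0.996% to 1.52% in wild type. As sums of CPM, wild type exceeded the deletion 49.9-fold.

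Shares of this pool were taken within each library, so they do not depend on scaling between libraries. POX2 made up 63.7%, 70.2% and 71.5% of the pool in deletion replicates 1, 2 and 3, against 46.7%, 39.0% and 40.2% in the wild type replicates. POX3 made up 25.0%, 23.5% and 22.6% in the deletion, against 19.7%, 16.5% and 17.3% in wild type. Both long-chain and short-chain isozyme transcripts thus held a larger part of the pool in the deletion, with no overlap between the groups. Shares within a library add up to the whole, so lower shares of POX4 and POX5 by themselves raise those of POX2 and POX3. Relative to POX2, the count of POX3 was slightly lower in the deletion libraries.

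POX4 made up 2.47%, 1.22% and 2.54% of the pool in the deletion replicates, against 20.9%, 33.2% and 32.7% in the wild type replicates. Wild type replicate 1 was low among its group for POX4 and high for POX2. POX5 made up 8.79%, 5.08% and 3.31% in the deletion, against 12.7%, 11.3% and 9.83% in wild type. The mean share differed, deletion minus wild type, by 26.5 percentage points for POX2, 5.90 for POX3, -26.9 for POX4 and -5.53 for POX5. Each of these 4 differences had a two-sided exact permutation p of 0.1, the smallest that 3 against 3 libraries can give, so none could pass a threshold of 0.05. Taken over all 6 oxidase genes, the groups still did not overlap for POX2, POX3 and POX4, but they overlapped for POX5 (exact permutation p = 0.2), at 5.59 ± 2.70% in the deletion and 9.60 ± 1.39% in wild type (SD, n = 3 each).

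**Figure D3:**
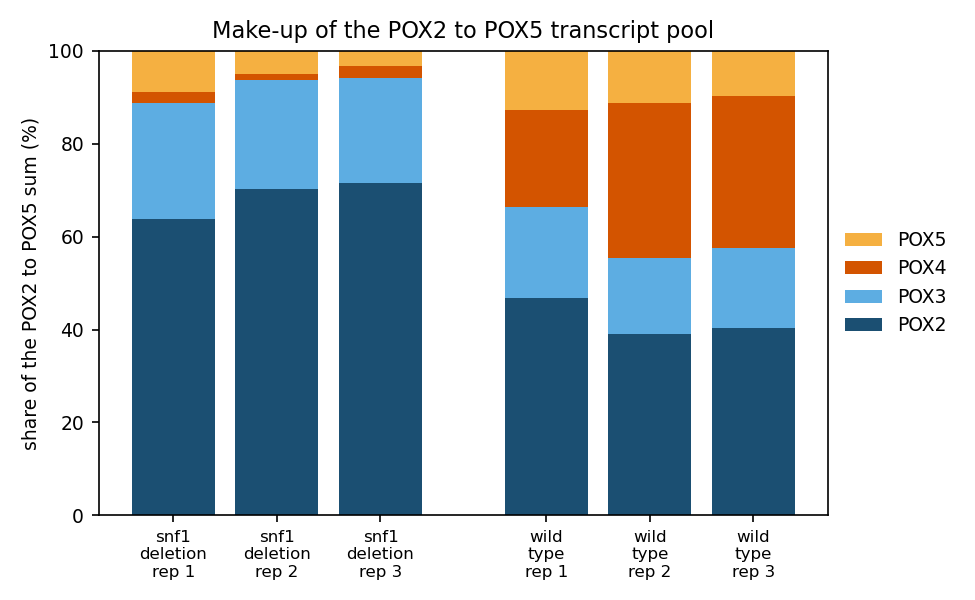
Share of each isozyme in the summed POX2 to POX5 level, per kb of coding length, in percent for each of the 3 snf1 deletion libraries (left) and the 3 wild type libraries (right). POX4 holds 1.22% to 2.54% in the deletion and 20.9% to 33.2% in wild type.

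Whether isozymes changed by unequal amounts was tested on the ratio of their counts, in edgeR fits in which the count of a chosen isozyme took the place of the library size. POX2 and POX3 moved nearly in step. The count of POX3 was 0.392, 0.336 and 0.316 of that of POX2 in deletion replicates 1 to 3, against 0.422, 0.422 and 0.429 in the wild type replicates. The wild type ratios were thus almost the same in all 3 cultures, and the deletion ratios were all slightly lower. The log2 ratio differed by -0.29, deletion minus wild type (95% interval from -1.23 to 0.66, adjusted p = 0.545 in edgeR's quasi-likelihood test). The deletion ratios all lay below the wild type ratios (two-sided exact permutation p = 0.1, the smallest possible), and the interval holds 0 as well as falls of over 1 on the log2 scale.

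POX4 parted from both. Its count was 0.0388, 0.0173 and 0.0355 of that of POX2 in the deletion replicates, against 0.448, 0.853 and 0.814 in the wild type replicates. The log2 ratio differed by -4.53 (SE 0.56, adjusted p = 6.89e-10). Against POX3 the count of POX4 was 0.0990, 0.0517 and 0.112 in the deletion, against 1.06, 2.02 and 1.90 in wild type. That log2 ratio differed by -4.24 (SE 0.48, adjusted p = 1.92e-07). POX4 exceeded POX3 in counts in each wild type library and was below it in each deletion library.

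POX5 also fell further than POX2 and POX3, by less than POX4 did. Relative to POX2 its count was 0.138, 0.0724 and 0.0462 in the deletion replicates, against 0.271, 0.288 and 0.244 in the wild type replicates, a log2 difference of -1.65 (SE 0.48, adjusted p = 0.00138). Relative to POX3 the log2 difference was -1.41 (SE 0.40, adjusted p = 0.00288). Relative to POX4 the count of POX5 was 3.55, 4.17 and 1.30 in the deletion, against 0.606, 0.338 and 0.300 in wild type, so this pair changed places in every library. Its log2 difference was 2.86 (SE 0.56, adjusted p = 3.07e-07). Deletion replicate 3 was nearest to wild type for this pair.

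Of the 6 pairs compared, 5 passed and POX3 over POX2 did not. In these fits nearly every feature passed, namely 98.4% of 7243 with POX2 as the scale, 98.7% with POX3 and 99.9% with POX4, since few features fell as the oxidases did. Each fit shares the scatter of a single scaling transcript among all features, so its p-values may be too small. For POX3 over POX2 the SE of the fit was 0.47. The log2 ratios of that pair had an SD of only 0.161 in the deletion and 0.0131 in wild type. That this pair did not pass therefore does not show that the 2 genes fell equally. The exact permutation p of every pair was 0.1, so it does not set POX3 over POX2 apart from the others.

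**Figure D4:**
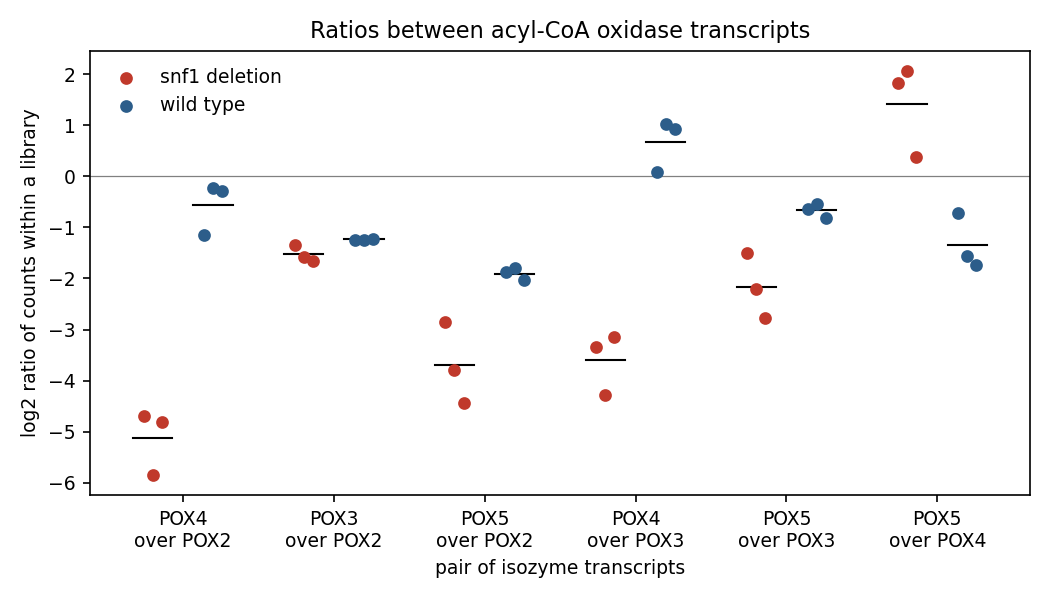
The log2 ratio of counts within each library for the 6 pairs of isozymes, in the 3 snf1 deletion libraries (red, left) and the 3 wild type libraries (blue, right), with group means as lines. POX3 over POX2 stays within a narrow band in both groups, and the pairs that hold POX4 are the farthest apart.

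The spread of CPM over cultures was of like size in the groups for POX2, POX3 and POX5, and wider in the deletion for POX4. The coefficient of variation was 26.2% in the deletion and 20.4% in wild type for POX2, 17.6% and 19.7% for POX3, 35.9% and 23.5% for POX4, and 28.5% and 25.3% for POX5. The log2 ratios of all 6 pairs spread more in the deletion. Their SD was 0.791 in the deletion and 0.121 in wild type for POX5 over POX2, and 0.161 and 0.0131 for POX3 over POX2. How reads that match several of these related genes were counted is not given in the sources used here, and the part of such reads in the low values of the deletion was not tested.

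The other oxidase genes, POX1 and POX6, had log2 fold changes of -8.09 (SE 0.60, adjusted p = 1.01e-06) and -8.77 (SE 0.59, adjusted p = 9.29e-07) in edgeR. Their residual levels, 0.367% and 0.229% of wild type, lay between those of POX5 and POX4. POX1 and POX6 together held 0.00160% of all counts in the deletion and 0.479% in wild type.

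The transcripts whose profile over the 6 libraries was nearest to each member were sought among 4891 other features with a mean of at least 10 CPM. Likeness was the root mean square difference of centred log2 CPM, and most of each profile is the difference between the groups. The nearest to both POX2 (0.146) and POX3 (0.0703) was MFE2, the gene of the multifunctional enzyme that takes over the product of the oxidases. MFE2 was nearer to POX3 than POX2 was (0.173). The next for POX2 were YALI0_E15708g (0.176) and FAT1 (0.208), and for POX3 YALI0_E15708g (0.164) and YALI0_B08030g (0.171). The nearest to POX4 was its paralogue POX6 (0.379), followed by the aldehyde dehydrogenase gene FALDH1 (0.547) and YALI0_D00176g (0.674). The nearest to POX5 were YALI0_E12419g (0.437), YALI0_B14619g (0.498) and the P450 gene ALK11 (0.499). POX4 was 2.33 from POX2 and 2.18 from POX3.

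Genes of beta-oxidation and related functions outside the 4 members were taken from a list of 14, which also holds catalase entries. Of the 12 list genes that could be tied to a count row, 11 fell and 1 rose in edgeR, where 18.7% of tested features fell and 18.3% rose. Over all features these are 1356 lower and 1329 higher, and 936 lower and 1946 higher when libraries are scaled by size only. Ties ran through the authors' deposited table, whose units all have an adjusted p under 0.05 in these same libraries. That the 12 passed was thus largely settled by how they were found. Of the units of that table, 51.4% are lower. All 6 named genes among these fell, namely POX1, POX6, MFE2, POT1, PAT1 and FAT1. MFE2 stood at 442 ± 102 CPM in the deletion and 16330 ± 2762 CPM in wild type (SD, n = 3 each), a log2 fold change of -5.21. POT1, the gene of a thiolase that ends each round, changed by -4.17, PAT1, the gene of an acetoacetyl-CoA thiolase, by -5.85 and FAT1 by -4.79. FAA1, known for the activation of fatty acids to acyl-CoA, was not tied and is at -1.91 in the authors' deposited table. The medians of log2 fold change were -4.66 over the 12 tied list genes and 0.04 over all tested features.

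Of the 7 list genes that the files give by tag alone, 5 fell and 1 rose, where 18.7% of tested features fell and 18.3% rose. YALI0_A06655g was not tied. That the tied ones passed was again largely settled by how they were found. The largest falls among them were those of YALI0_C04092g (-5.16), YALI0_E03058g (-4.52) and YALI0_F30987g (-4.30), followed by YALI0_D04246g (-2.87) and YALI0_E34749g (-2.22). YALI0_F30987g and YALI0_E34749g are on the list as catalase entries, as is YALI0_E34265g, the gene that rose. The rise, of YALI0_E34265g, was 1.15 on the log2 scale (SE 0.40, adjusted p = 0.0387 in edgeR). It did not pass without deletion replicate 2 (0.73, adjusted p = 0.15), deletion replicate 3 (adjusted p = 0.0635), wild type replicate 2 (0.111) or wild type replicate 3 (0.14), nor with the replicate block (0.0639).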

How the data were processed

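Total RNA of 6 cultures was sequenced from directional libraries, per the labels. Tools named in the submitters' processing notes are HISAT2 2.2.1, Trimmomatic 0.38.0, DESeq2 2.11.40.7 and StringTie. The genome build, strand use and counting options, not given in the sources used here, were not taken from elsewhere. The authors deposited whole-number counts per transcript for each library. Their deposited DESeq2 table lists 2840 units, with the log2 fold change (treated as a score, since the column ends in a value that belongs to no gene), the mean as a normalised signal, its standard error, and adjusted p-values, all under 0.05, per the file headers. Its coordinates run in another order than its tags, and none is printed. The row of POX2 was found by 3 deposited values, the mean, the log2 fold change and its error, offset as for POX3, POX4 and POX5, whose rows were given: its scaled distance was 0.362, and that of the next feature 43.0. Other genes were tied the same way, so their fold changes match the table by construction. For Snf1 the scaled distance was 8.76, where the limit was 10, and that of the next feature 139.

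Groups were compared with R 4.3.3 and edgeR 4.0.16 on all 6 libraries (TMM, filterByExpr at its defaults, 10 for the count and 15 for the total, threshold 0.05); 7244 features were tested. The standard error is the log2 fold change over the square root of F. Replicates of a group differed beyond sampling noise in every pair (chi-square at least 308 per degree of freedom). Lengths came from a RefSeq table of the CLIB89(W29) assembly, matched by accession without version. Alternatives included limma 3.58.1 (voom) and DESeq2 1.42.0. The members, lists and tests were chosen with earlier results of these data known. Named genes are the members, Snf1, the list, and the 3 nearest profiles per member. No sequences were used. Where the 3 cultures were not separate from the start, p-values measure only the spread between these samples.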

Additional observations from a re-analysis of the deposited data

How the results depend on the processing

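All 4 log2 fold changes kept their direction and stayed past the threshold in all 52 alternative fits of the members (other scalings, no low-count filter, DESeq2, limma-voom, the replicate block and leaving out each library). Leaving out a library gave -5.05 to -4.70 for POX2, -5.36 to -5.08 for POX3, -9.78 to -9.26 for POX4 and -6.91 to -6.51 for POX5. The share differences kept their direction in all 40 alternatives, with the length of POX3 multiplied or divided by 0.8 among them, an alternative chosen after seeing the data. Ratio differences kept direction in all 54 alternatives. In the exact permutation test, which cannot go below 0.1 here, 5 no longer passed: POX4 over POX2 (-4.55), POX5 over POX2 (-1.79), POX4 over POX3 (-4.26), POX5 over POX3 (-1.50) and POX5 over POX4 (2.76). Leaving out a library gave -4.77 to -4.24, -2.18 to -1.35, -4.48 to -3.97, -1.80 to -1.16 and 2.55 to 3.24 for these pairs.

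Counts over all features moved more. The 1329 features higher became 2005 with upper-quartile scaling and 1946 with library size only, while the 1356 lower became 966 and 936. Those scalings shifted the median log2 fold change from 0.04 to 0.39 and 0.40, and that of POX2 to -4.56 and -4.55. Without deletion replicate 3, 873 were higher and 951 lower; over all left-out libraries the ranges were 873 to 1351 and 951 to 1366. Deviations of same-numbered libraries from their group means were weakly correlated (0.0462, 0.143 and 0.136). Of the 6 libraries, 5 correlated best with their own number. These best matches share the same few correlations, and no chance level was worked out, so they do not settle whether the numbers pair cultures. The labels do not say that the numbers pair cultures, so the main fit left pairs out and the replicate block was an alternative. With the replicate block, 1412 features were higher and 1342 lower, and POX4 was at -9.49, POX5 at -6.74, POX3 at -5.24 and POX2 at -4.94.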
